A study of Selaginella kraussiana with 4 samples.

Results

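The shoot tip of Selaginella kraussiana was set against the stem, that is, the growing apex against the axis it leaves behind. Selaginella kraussiana is a creeping spikemoss of the lycophytes, a lineage of vascular plants that parted early from the ferns and seed plants. The data are RNA-seq libraries of 4 tissues, 1 library each. The shoot tip library carries the deposited label seedling, and the tissue name is taken from the study's list of its RNA samples. The stem library carries the label stem. The other libraries are labelled rhizophore (the rhizophore tip, from the root-bearing axis) and leaf (the microphyll, the small leaf of lycophytes). All plants shared the same growth conditions, 26 °C with 16 h of light and 8 h of dark, and the labels name no treatment. The labels do not state how many plants or tips were pooled in a library. With 1 library a side, no difference below has a replicate check, and no test was made. What differs between the tissues and what differs between the plants or preparations cannot be told apart.

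Each deposited table lists the loci that Cufflinks assembled from 1 library on the contigs of a draft genome, with a level in FPKM (fragments per kilobase of transcript per 1000000 fragments). Each level has bounds below and above it, which are taken as the usual 95% Cufflinks interval. They hold the error inside a library only, without any spread between plants. Wherever loci of the 4 tables overlapped by 1 bp or more they were joined, which gave 31210 union loci, and all FPKM values that a library had inside such a locus were added up. The comparison took the 22145 union loci, or 71.0%, that were at least 300 bp long and had an FPKM of at least 1 in the shoot tip or the stem. They lie on 19419 contigs. Of the rest, 5155 were shorter than 300 bp and 3910 were long enough but below 1 FPKM in both libraries. Close to these limits, 233 loci had a higher value of the pair from 1.0 to 1.1 FPKM and were kept, and 211 from 0.9 to 1.0 FPKM were not. Likewise 271 loci of 300 to 309 bp were kept and 261 of 290 to 299 bp were not.

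In Selaginella the apical meristem of the shoot divides to form the stem and the microphylls, and it forks to give the dichotomous branches of the plant. A shoot tip therefore holds dividing cells together with very young stem and leaf tissue. The stem below it holds differentiated vascular strands, each hung in an air space by elongated endodermal cells. The tables give no gene names, strands or transcript structures, so no locus can be tied to a gene or a pathway and neither tissue label could be checked against marker genes. Loci are given here by contig and position, counted from 1 on the study's draft contigs. In bulk tissue, fewer cells of a type and less RNA per cell cannot be told apart.

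The libraries were of like depth. By the widths of the intervals, the median number of fragments per locus was 187 in the shoot tip, against 154 in the stem. The median was 174 in the rhizophore tip and 151 in the microphyll. Of the 22145 loci, 21268 were assembled in the shoot tip, against 20823 in the stem. The median level of the assembled ones was 13.7 FPKM in the shoot tip and 13.2 FPKM in the stem.

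Most loci had close levels in the shoot tip and the stem. The difference was taken as log2(FPKM + 1) in the shoot tip minus log2(FPKM + 1) in the stem, a scale on which low levels are drawn together. It lay within 1 for 14660 loci, or 66.2%, and its median was 0.13. The middle 50% of loci lay between -0.54 and 0.70, and 5% lay below -2.19 and 5% above 2.17. A locus was called at a difference of at least 2, which is at least 4 times on the FPKM + 1 scale. By this rule 1304 loci (5.89%) were higher in the shoot tip and 1333 (6.02%) were higher in the stem. At a difference of at least 1 the numbers were 3886 and 3599. The near balance of the directions depended on the scale. Summed FPKM was 6675220 in the shoot tip, against 3391760 in the stem, and loci shorter than 300 bp held 83.0% of it in the shoot tip, against 64.8% in the stem. Dividing by these sums (TPM) shifted the shoot tip against the stem by -0.98 on the log2 scale and gave a median difference of -0.51. The calls were then 309 for the shoot tip and 1608 for the stem, so that the shoot tip took 16.1% of all calls and not 49.5%. The same 1 was added to these smaller values, where it weighs more, and most in the shoot tip. The parts of the shift and of the added 1 in this change were not tested. Median-of-ratios factors gave 1223 and 1440 calls. Over the members alone the summed FPKM was 1131830 in the shoot tip, against 1195000 in the stem.

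**Figure D1:**
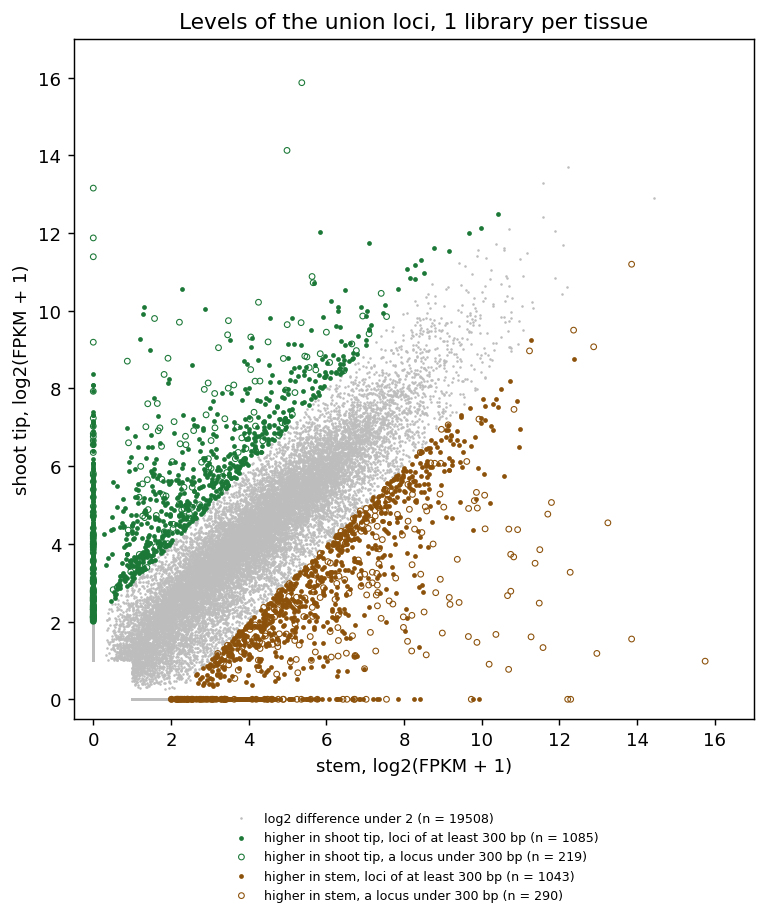
Level of each of the 22145 loci in the shoot tip (vertical axis) and the stem (horizontal axis), both as log2(FPKM + 1) in 1 library. Green points are the 1304 loci higher in the shoot tip and brown points the 1333 higher in the stem. Open circles mark called loci that rest on a locus shorter than 300 bp in either library, and they make up much of the far lower right. Points on the axes were not assembled in the other library.

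Part of the largest differences rested on short loci. A union locus of 300 bp or more can hold a much shorter locus of 1 library, and FPKM divides by a length corrected for the fragment, which is small in a short locus. In 1500 members, or 6.77%, a locus of the shoot tip or the stem was itself shorter than 300 bp. This was so for 219 of the 1304 loci higher in the shoot tip (16.8%) and for 290 of the 1333 higher in the stem (21.8%). The short locus was mostly in the library with the higher level, in 215 of these 219 loci the shoot tip and in 282 of the 290 the stem. Without them, 1085 of 20645 loci (5.26%) were higher in the shoot tip while 1043 (5.05%) were higher in the stem, and the median difference was 0.14.

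The interval of a locus gives a second reading, since its width corresponds to a number of fragments if it spans 2 Poisson standard deviations on each side. This number is an understatement wherever the authors' software widened the interval. It could be set against FPKM for the 15031 members with exactly 1 locus in each library. Of these, 12012 (79.9%) had a number of fragments per FPKM that differed by at most 2 times between the libraries, after division by the totals. Among the called loci this share was lower, with 277 of 491 (56.4%) higher in the shoot tip and 292 of 589 (49.6%) higher in the stem. Thus 2.31% of the 12012 loci were higher in the shoot tip and 2.43% higher in the stem. A called locus with like fragments per FPKM also differs in fragments, since the choice of these loci fixes that. Without that choice, 51 of all 491 called loci higher in the shoot tip and 112 of all 589 higher in the stem had an equal or opposite difference in fragments.

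**Figure D2:**
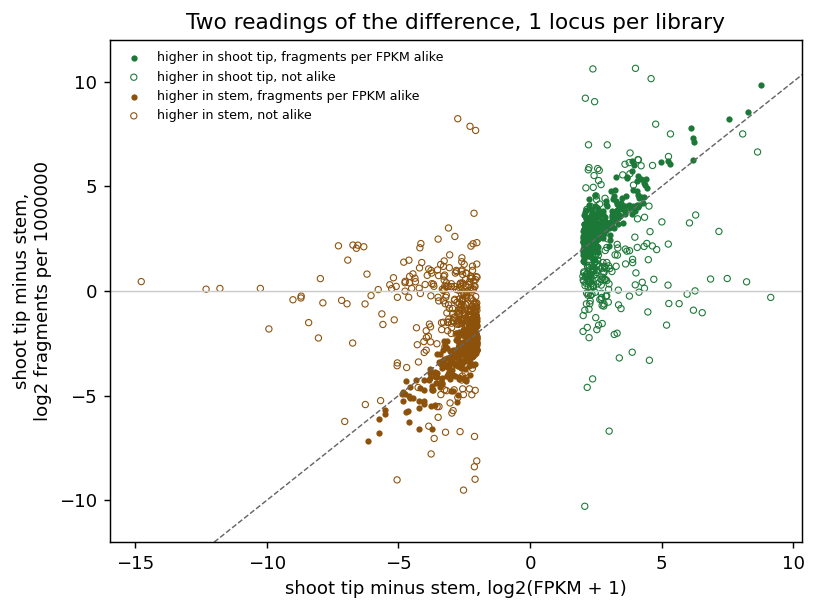
Called loci with 1 locus in each library, by the difference in log2(FPKM + 1) (horizontal axis) and in log2 fragments per 1000000 (vertical axis), both shoot tip minus stem. Filled points were chosen for like numbers of fragments per FPKM in the libraries, which places them near the dashed line of equal values. Open points were not so chosen, and many of those furthest left lie near 0 on the vertical axis. A further 17 loci lie beyond 12 on the vertical axis.

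Calls were most frequent among loci with a high level in either library. The classes use the higher value of the pair compared, so a single very high value both moves a locus up and favours its call. A locus shorter than 300 bp was part of 29.7% of members from 1000 FPKM, against 6.29% from 10 to 30 FPKM. Among the 175 members with at least 1000 FPKM in the higher library, 19.4% were higher in the shoot tip while 28.6% were higher in the stem. Of the 5862 members from 10 to 30 FPKM, 5.29% and 5.13% were. From 100 to 1000 FPKM the shares were 10.2% and 13.4% of 2602. With loci of at least 300 bp in each library only, the top class held 123 loci, of which 20.3% were higher in the shoot tip while 16.3% were higher in the stem, so the excess of the stem in that class was not present there. The number of fragments per FPKM was alike in 57.3% of the single-locus members of the top class and in 79.6% from 10 to 30 FPKM. Below 3 FPKM no call is possible on the scale used. By length, calls were most frequent from 300 to 600 bp, with 7.98% higher in the shoot tip and 7.74% higher in the stem, and least frequent from 2400 bp, with 4.39% and 4.72%.

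**Figure D3:**
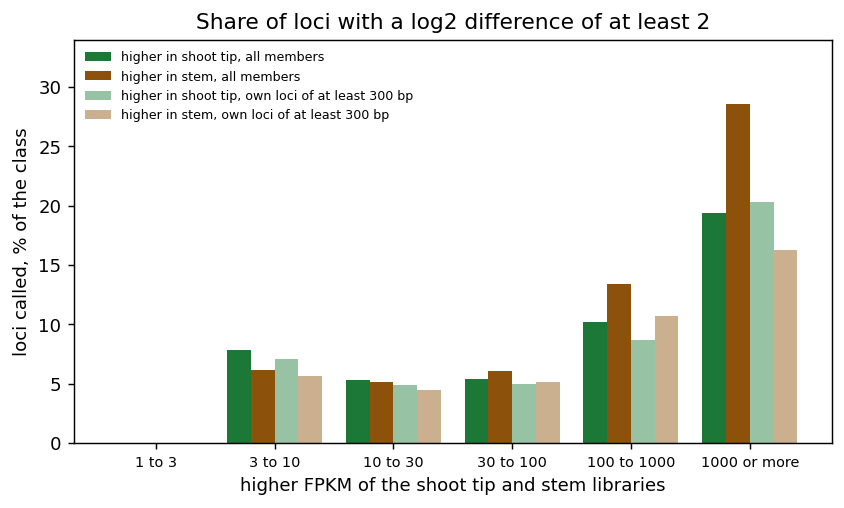
Share of loci called in each direction (vertical axis, %) by the FPKM of the higher library (horizontal axis, 6 classes). Full colours are all members and pale colours those with loci of at least 300 bp in each library. The share is 0 below 3 FPKM, lowest from 10 to 100 FPKM and highest from 1000 FPKM.

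Among loci assembled once in each library, with intervals apart and at least 100 fragments where higher, the 8 with the largest differences were between 6.29 and 9.14 higher in the shoot tip on the log2 scale. Of these, 3 had like numbers of fragments per FPKM. The first of them, on contig 102948 from 1695 to 2316, had 1093 FPKM (95% interval 1077 to 1109) in the shoot tip and 1.48 FPKM (0.764 to 2.20) in the stem, with 44.2 FPKM in the rhizophore tip and 1.22 FPKM in the microphyll. It rested on 19084 fragments in the shoot tip, against 17 in the stem, a log2 difference of 8.78 in FPKM + 1 and 9.83 in fragments. Its level in the rhizophore tip, the other growing tip, stood between those of the shoot tip and of the other 2 tissues. The second, on contig 074566 from 12 to 322, had 1512 FPKM (1481 to 1544) in the shoot tip and 3.87 FPKM (2.14 to 5.60) in the stem, with 7.51 FPKM in the rhizophore tip and 5.15 FPKM in the microphyll. The third, on contig 103619 from 1 to 979, had 509 FPKM (501 to 516) in the shoot tip and 1.74 FPKM (1.26 to 2.23) in the stem, with 1.98 FPKM in the rhizophore tip and 1.56 FPKM in the microphyll. Both were thus high in the shoot tip alone of the 4 libraries.

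The largest difference of the 8 did not hold in fragments. On contig 091873, positions 1 to 586 had 17908 FPKM in the shoot tip and 30.7 FPKM in the stem, a log2 difference of 9.14. The shoot tip locus was 108 bp long and the stem locus 586 bp, and they correspond to 534 fragments in the shoot tip, against 536 in the stem. The remaining 4 lay on contigs 044881, 072163, 060287 and 105509, with differences of 8.64, 8.08, 7.17 and 6.29 in FPKM + 1 and of 6.64, 7.50, 2.84 and 3.63 in fragments. In the shoot tip they correspond to 1967, 2145, 2262 and 2074 fragments, at 969, 622, 1054 and 302 FPKM. These numbers hardly follow the FPKM and are understatements where an interval was widened, so the differences in fragments may be too small. That on contig 060287 was also abundant in the microphyll, with 1054 FPKM in the shoot tip, 6.31 FPKM in the stem, 1.14 FPKM in the rhizophore tip and 627 FPKM in the microphyll.

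A further 5 loci, chosen after the values were seen as the next largest with like fragments per FPKM and loci of at least 300 bp, showed which other tissue shared the level of the shoot tip. Positions 1 to 356 of contig 024453 had 4204 FPKM (4161 to 4247) in the shoot tip and 55.9 FPKM (50.3 to 61.4) in the stem, with 43.5 FPKM in the rhizophore tip and 1299 FPKM in the microphyll. Its higher levels were thus in the shoot tip and the microphyll. On contig 049707, positions 1882 to 2358 had 284 FPKM in the shoot tip and 2.82 FPKM in the stem, with 134 FPKM in the rhizophore tip and 12 FPKM in the microphyll. On contig 042922, positions 1 to 495 had 110 FPKM in the shoot tip and 1.79 FPKM in the stem, with 152 FPKM in the rhizophore tip and 2.28 FPKM in the microphyll. These last 2 were high in both growing tips. The loci on contigs 099574 and 099226 had 216 and 125 FPKM in the shoot tip, 1.96 and 0.827 FPKM in the stem, and in the rhizophore tip and the microphyll both were below their level in the stem or not listed.

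By the same rule, the 8 loci of the stem had differences from -9.01 to -5.77, and 5 of them rested on a stem locus of 110 to 176 bp. The locus on contig 104433 from 371 to 799 had 8.64 FPKM in the shoot tip and 4957 FPKM in the stem. Its shoot tip locus was 426 bp long and its stem locus 110 bp, with 113 fragments in the shoot tip, against 123 in the stem. The loci on contigs 099714, 075820 and 090318 were alike in this, with differences of -7.16, -6.27 and -5.77 in FPKM + 1 and of -0.45, -0.62 and 0.07 in fragments. That on contig 066015 kept a difference of -2.49 in fragments, against -6.74 in FPKM + 1.

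The other 3 were higher in the stem by both readings. The locus on contig 045798 from 1464 to 2112 had 0.732 FPKM (0.326 to 1.14) in the shoot tip and 124 FPKM (117 to 130) in the stem, with 6.13 FPKM in the rhizophore tip and 3.58 FPKM in the microphyll. It rested on 13 fragments in the shoot tip, against 1533 in the stem, a log2 difference of -6.17 in FPKM + 1 and -7.18 in fragments. Contig 059319 had, from 1094 to 2781, 1.52 FPKM (1.00 to 2.04) in the shoot tip and 331 FPKM (316 to 345) in the stem. That on contig 009774 from 1 to 541 had 2.38 FPKM (1.65 to 3.11) in the shoot tip and 258 FPKM (244 to 271) in the stem. Both had intermediate levels in the rhizophore tip, 41.0 and 29.5 FPKM.

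For the stem, too, 5 further loci with like fragments per FPKM were chosen after the values were seen. Their levels ran from 1.14 to 6.71 FPKM in the shoot tip and from 61.2 to 357 FPKM in the stem. Positions 3472 to 4395 of contig 071782 had 6.71 FPKM (5.73 to 7.70) in the shoot tip and 350.2 FPKM (342 to 358) in the stem, with 38.7 FPKM in the rhizophore tip and 136 FPKM in the microphyll. Contig 041439 had, from 1 to 390, 6.37 FPKM (4.73 to 8.01) in the shoot tip and 333 FPKM (321 to 346) in the stem, with 97.8 FPKM in the rhizophore tip and 149 FPKM in the microphyll. These were lowest in the shoot tip of all 4 tissues. So were the loci on contigs 059646, 059548 and 087814, at 3.97, 5.74 and 1.14 FPKM in the shoot tip, although on contig 059548 the rhizophore tip was close to it at 7.89 FPKM.

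A total of 1322 loci (5.97% of members) were assembled in the shoot tip and not in the stem, and 877 (3.96%) in the stem and not in the shoot tip. An unlisted locus is one that was not assembled, which does not mean that no read was present. The shoot tip library was also the deeper of the pair, and the part of depth in these numbers was not tested. Most of these loci were weak, with a median of 2.45 FPKM and 29.9 fragments in the shoot tip and of 2.69 FPKM and 28.0 fragments in the stem. At least 10 FPKM was reached by 188 of them in the shoot tip, against 127 in the stem, and at least 100 FPKM by 24 and 19. Of the 1322, 765 were assembled in the rhizophore tip, 644 in the microphyll and 277 in neither. Of the 877, 411 were assembled in the rhizophore tip, 436 in the microphyll and 257 in neither. Over all 22145 members, 20430 were assembled in the rhizophore tip and 20093 in the microphyll, larger shares than in either set. The part of the weak levels in these lower shares was not tested. The 1322 loci supplied 557 of the calls for the shoot tip and the 877 loci 395 of those for the stem.

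The 4 such loci with the most fragments on each side were abundant. The locus on contig 043643 from 53 to 2102 had 159 FPKM (157 to 162, 16594 fragments) in the shoot tip and was not listed in the stem, where 11 fragments would have read 0.13 FPKM. It had 0.435 FPKM in the rhizophore tip and 0.302 FPKM in the microphyll, so its level stood out in the shoot tip alone. The loci on contigs 100383, 048172 and 007071 had 166, 119 and 113 FPKM in the shoot tip, and the last of them also had 68.4 FPKM in the rhizophore tip and 27.5 FPKM in the microphyll. On contig 045258, positions 397 to 2495 were not listed in the shoot tip and had 868 FPKM (858 to 878, 31340 fragments) in the stem, with 119 FPKM in the rhizophore tip and 0.80 FPKM in the microphyll. Loci on contigs 103824 (69 to 935) and 098882 (823 to 2358) were listed in the stem only of the 4 tissues, at 229.7 FPKM (224 to 235) and 306 FPKM (294 to 318). That on contig 060714 had 102 FPKM in the stem, 5.54 FPKM in the rhizophore tip and 2.13 FPKM in the microphyll.

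**Figure D4:**
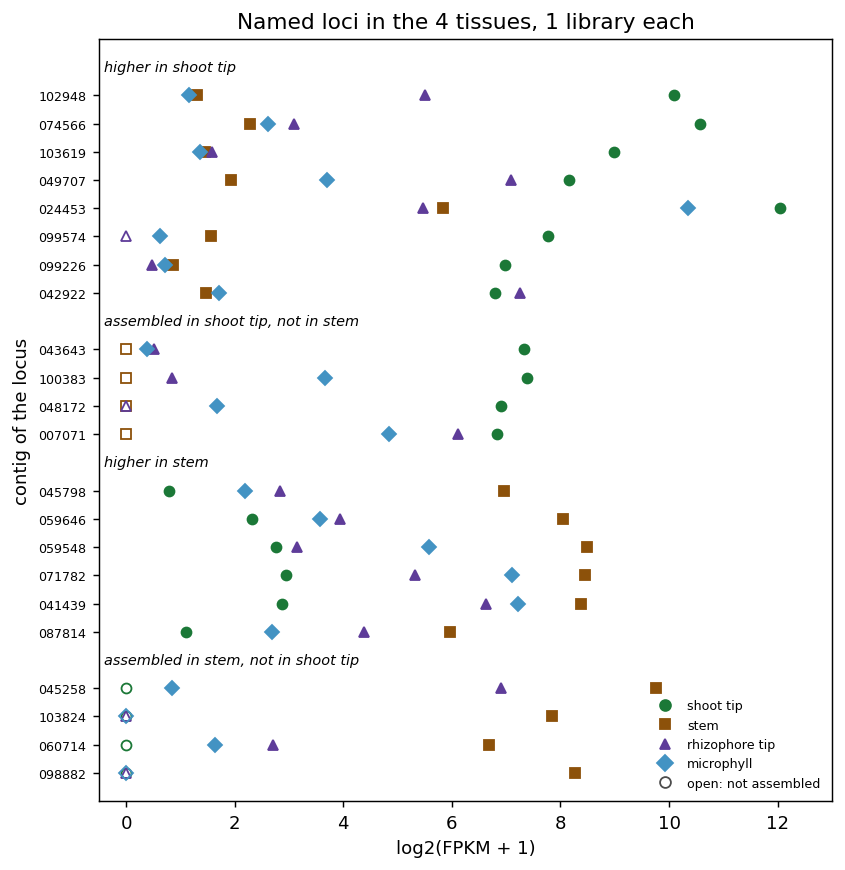
Level in log2(FPKM + 1) (horizontal axis) of the named loci with like fragments per FPKM and of those assembled on 1 side only, a row for each locus by its contig, in the 4 tissues with 1 library each. Open symbols at 0 stand for loci not assembled. The shoot tip stands far above the stem in the upper 2 blocks and far below it in the lower 2, while the rhizophore tip and the microphyll vary from row to row.

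The most abundant loci shared by both libraries did not have like fragments per FPKM. The first, on contig 063554 from 2054 to 2573, had 7692 FPKM (7370 to 8014) in the shoot tip and 22049 FPKM (21133 to 22964) in the stem, with 2002 FPKM in the rhizophore tip and 25767 FPKM in the microphyll. Its intervals correspond to 2282 fragments in the shoot tip, against 2322 in the stem, with 2015 in the rhizophore tip and 2330 in the microphyll. These numbers hardly follow the FPKM, and they are understatements where an interval was widened. The log2 differences were -1.52 in FPKM + 1 and -0.33 in fragments, but the fragments cannot be taken as a second measure of this locus. On contig 054616, positions 22 to 432 had 13202 FPKM in the shoot tip and 4740 FPKM in the stem, from loci of 122 and 111 bp, with differences of 1.48 in FPKM + 1 and 3.14 in fragments. The third, on contig 048034 from 218 to 531, had 2349 FPKM (1300 to 3398) in the shoot tip and 14837 FPKM (6607 to 23066) in the stem. Its loci there were 150 and 144 bp long and correspond to only 20 fragments in the shoot tip, against 13 in the stem. It had 4.12 FPKM in the microphyll, from a locus of 309 bp that took the union locus past the length minimum. It was not listed in the rhizophore tip. Its high levels thus rest on few fragments in short loci. At this locus the readings differ in direction, with -2.66 in FPKM + 1 and 0.32 in fragments.

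The levels of the rhizophore tip and the microphyll took no part in the calls, although their loci entered the joining and so the length of union loci. With loci joined over the shoot tip and the stem only, the calls were 1227 and 1306. The levels in the rhizophore tip and the microphyll show where else the called loci were expressed. Over the 1304 loci higher in the shoot tip, the median level was 23.8 FPKM in the shoot tip and 1.18 FPKM in the stem, with 9.79 FPKM in the rhizophore tip and 2.82 FPKM in the microphyll. The rhizophore tip was within 1 of the shoot tip on the log2 scale, or above it, for 694 of these loci (53.2%), and the microphyll for 349 (26.8%). Over all members these shares were 85.3% for the rhizophore tip and 76.3% for the microphyll. Choosing loci for a high level in the shoot tip lowers both shares by itself, so their fall below all members is no result. The share of the microphyll was below that of the rhizophore tip among these loci, as it also was over all members. The microphyll was lower than the shoot tip by at least 2 for 739 (56.7%) and the rhizophore tip for 433 (33.2%), against 8.43% and 5.12% of all members. For the 277 loci with like fragments per FPKM the order was the same, since the rhizophore tip came within 1 of the shoot tip or above it for 172 (62.1%) and the microphyll for 53 (19.1%). The shoot tip stood at least 2 above all 3 other tissues for 233 of the 1304 loci (17.9%), and for 26 of the 277. Every such locus is called by the rule, so these are also the counts over all 22145 members and over the 12012. The called loci already stand at least 2 above the stem, which raises their shares by itself.

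Over the 1333 loci higher in the stem, the median level was 2.62 FPKM in the shoot tip and 34.6 FPKM in the stem, with 9.53 FPKM in the rhizophore tip and 7.17 FPKM in the microphyll. By the shares within 1 of the stem, the remaining tissues were alike. The rhizophore tip was within 1 of the stem or above it for 396 loci (29.7%), and the microphyll for 395 (29.6%), against 83.1% and 77.9% of all members. Choosing loci for a high level in the stem likewise lowers both shares by itself. For the 292 loci with like fragments per FPKM the numbers were 85 (29.1%) for the rhizophore tip and 84 (28.8%) for the microphyll. The microphyll was lower than the stem by at least 2 for 661 of the 1333 loci (49.6%) and the rhizophore tip for 638 (47.9%). Over all members these shares were 8.45% and 6.08%, and choosing loci for a high level in the stem raises both by itself. Among the 292 loci the microphyll was so for 127 and the rhizophore tip for 102, and the share over all 12012 loci of this kind was not computed. The stem stood at least 2 above all 3 other tissues for 377 loci (28.3%), and for 57 of the 292. Here too these are the counts over all 22145 members and over the 12012, and the choice of loci raises the shares.

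**Figure D5:**
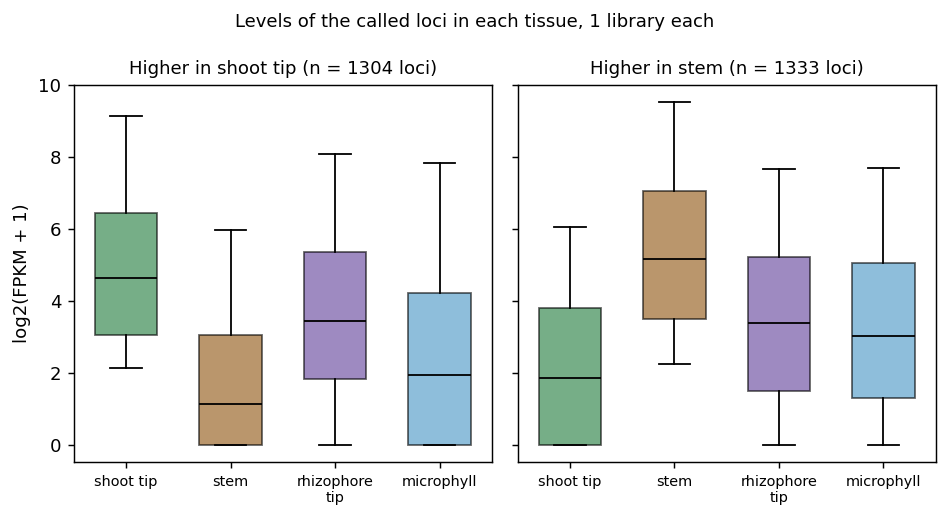
Levels of the called loci in the 4 tissues, 1 library each, as log2(FPKM + 1). Boxes span the middle 50% of loci with the median as a line, and whiskers run to the 5th and the 95th percentile. On the left, loci higher in the shoot tip have a higher median in the rhizophore tip (9.79 FPKM) than in the microphyll (2.82 FPKM). On the right, loci higher in the stem have medians of 9.53 and 7.17 FPKM there.

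The 22145 members lay on 19419 contigs, of which 2242 held 2 or more of them. The 1304 loci higher in the shoot tip lay on 1284 contigs and the 1333 higher in the stem on 1319. In all, 53 contigs held 2 or more called loci, of which 18 had them higher in the shoot tip only, 13 higher in the stem only and 22 in both directions.

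Counted over both directions, 11.9% of the loci were called between the shoot tip and the stem. By the same rule, with the loci of each pair of libraries, the shoot tip differed from the rhizophore tip at 10.4% of loci and from the microphyll at 13.9%. Set against the stem, the rhizophore tip gave 13.1% and the microphyll 14.3%. The rhizophore tip set against the microphyll gave 20.6%. With loci of at least 300 bp in each library, the share was 10.3% for the shoot tip set against the stem and from 8.85% to 19.5% for the others, in the same order. The pairs share libraries, so these shares are not independent of each other, and none of their differences was tested.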

How the data were processed

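RNA of 4 tissues was sequenced as paired-end reads, 1 library per tissue. The authors cut off the leading bases, mapped the reads by TopHat onto contigs assembled from their own DNA reads, and assembled and quantified transcripts with Cufflinks. The FPKM values and their bounds were used as the authors deposited them, and all had the status OK. No normalization between libraries is stated. No reference genome was used here, and no sequence is shown.

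Loci were merged, summed and filtered as described, with numpy 2.4.6 and pandas 2.3.3, and plotted with matplotlib 3.10.9. Starts were deposited counting from 0 and 1 was added. Numbers of fragments are the square of 2 FPKM over the distance to the upper bound. Library totals came from a line through the highest fragments per FPKM in bins of 50 bp, from 400 to 3000 bp. The computation was tested on simulated data. Depth limits each level through its interval. The loci named were the 8 with the largest differences of each direction (1 locus in each library, intervals apart, at least 100 fragments where higher), the 4 assembled on each side only and the 3 most abundant, and further ones are marked as chosen after their values were seen. The comparison, its members and the rules were chosen with earlier results of these data known. Restricting to loci of at least 300 bp in each library, to like fragments per FPKM, to fragments in place of FPKM, and to centred differences was chosen after seeing the data. Other alternatives covered the pseudocount, scaling, filters, size of difference and merging.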

Additional observations from a re-analysis of the deposited data

How the results depend on the processing

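The numbers of called loci moved with settings that change the loci passed, their values or the size of difference called. Given for the shoot tip first and the stem second, against 1304 and 1333, they were 2284 and 2084 when 0.1 was added to each FPKM and not 1, 605 and 674 when 5 was added, 577 and 624 from 1000 bp, 3886 and 3599 at a log2 difference of at least 1, and 527 and 515 at a difference of at least 3. With no minimum length they were 2263 and 1956, in TPM 309 and 1608, with at most 1 locus per library 883 and 830, and among loci assembled in both libraries 747 and 938. With like fragments per FPKM, chosen after seeing the data, they were 277 and 292. The floor of 11 fragments gave 1565 and 1829, of which 1049 and 1173 were called before. Centring the differences of loci of at least 300 bp on their median, chosen after seeing the data, gave 940 and 1222, and fragments in place of FPKM gave 1109 and 1007, of which 323 and 315 were called before. The other settings left both numbers within 1.5 times. The median difference of 0.13 was reversed to -0.51 in TPM and moved by less than 0.1 under the other 13 settings.

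Loci assembled in the shoot tip only and in the stem only were 2225 and 1381 with no minimum length, 252 and 156 from 1000 bp, and 188 and 127 from 10 FPKM, against 1322 and 877. The 38 named loci kept their direction under each pseudocount and scaling, and their side of a log2 difference of 2 except on contig 063554, which was at -1.52 and passed it in TPM at -2.50. Causes of these changes beyond what each setting itself alters were not tested. No paired analysis was possible because neither side of the comparison holds more than 1 library, and no replicate could be left out.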

Other observations

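The length minimum left out 3895 shorter union loci that reached 1 FPKM in the shoot tip or the stem. Of these, 959 were at least 2 higher in the shoot tip on the log2 scale and 623 at least 2 higher in the stem, a larger share than among the longer loci, and the median difference was 0.11.

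A union locus on contig 103377 from 15 to 9296, chosen after its values were seen, had the highest mean log2 level of those assembled in the shoot tip and the stem, at least 1000 bp long and not listed in the microphyll. It had 10096 FPKM (9767 to 10424) in the shoot tip and 3072 FPKM (3041 to 3102) in the stem, with 1033 FPKM in the rhizophore tip. The libraries differed in where the level lay. In the shoot tip a locus from 2123 to 5162 had 9881 FPKM and corresponds to 3841 fragments, while in the stem a locus from 22 to 2881 had 2567 FPKM and corresponds to 306028 fragments. In fragments per 1000000 the summed difference was -6.04 on the log2 scale, against 1.72 in FPKM + 1. The shoot tip locus thus has the smaller number of fragments at the higher FPKM, over 3040 bp, against 2860 bp in the stem. A number of fragments is an understatement where an interval was widened, so the fragments cannot decide the direction at this locus. The cause was not tested.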
